A study of Mus musculus with 4 samples.

Results

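Akr1c13, Akr1b3, Akr1b8, Akr1a1, Ptgr1 and Cryz encode nicotinamide-dependent oxidoreductases of aldehydes, ketones and alcohols, of quinones or of activated double bonds, and they were examined in 4 clonal lines of c17.2, a mouse neural stem cell line kept dividing by an immortalising gene. The genes were chosen by their signals on these same arrays, for opposite differences in the matched pairs and for the difference between the control clones, and every probe set annotated with 1 of these symbols was taken. Of the 6 genes, 5 had a probe set, 1 each, of 8237 genes with a probe set of their own on the array (12403 gene probe sets in all); Akr1b3 was not analysed here. The lines called clone 42 and clone 48 carried a stable transfection of Nurr1, an orphan nuclear receptor whose gene is Nr4a2. The lines called puroB and puroD carried the puromycin vector alone, and all were cultured while proliferating. Each line is a single clone measured on 1 Affymetrix array of biotin-labelled total RNA, so that clone, array and treatment of a line cannot be told apart. The sample labels match clone 42 with puroB, and clone 48 with puroD, by proliferation rate. The design text of the series agrees for the first pair but writes clone 42, with the abbreviation of clone 48, beside puroD; the sample labels were followed, and each pair difference rests on that. All values are MAS5 signals, which summarise the perfect-match and mismatch probes for a transcript as 1 linear intensity, scaled to a common trimmed mean of 500. Differences are taken between arrays, within a probe set. Signals of different probe sets were weighed against each other to pick a gene's brightest one and in summed cell type markers. In such a sum the brightest probe sets count most.

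The aldo-keto reductases are monomeric barrel-shaped enzymes that interconvert carbonyl and alcohol groups of sugars, steroids, prostaglandins and lipid aldehydes. Many prefer NADPH, whereas mouse Akr1c13 is described as a hydroxysteroid and alcohol dehydrogenase that prefers NAD. Ptgr1 and Cryz belong to another fold, the medium-chain dehydrogenases and reductases; Ptgr1 reduces the double bond of unsaturated aldehydes and of prostaglandin and leukotriene metabolites, and Cryz, zeta-crystallin, reduces quinones. Several genes of these families, in rodents Akr1b8 and Ptgr1 among them, are known to be induced through NRF2, the transcription factor that binds antioxidant response elements. In the brain such enzymes clear reactive aldehydes and quinones, among them the quinones formed when dopamine is oxidised.

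The sequences upstream of the 3 genes that varied most between the clones are shown because these genes carry the differences between clones reported here. They are the 250 bases before a RefSeq transcription start (build GRCm38.p6), 5′ to 3′ on the gene's strand. They lie at chr13:4190937-4191186 (plus strand) for Akr1c13, at chr4:58987079-58987328 (minus strand) for Ptgr1 and, for the downstream one of its annotated starts, at chr3:154596947-154597196 (plus strand) for Cryz. Capitals mark the letters CATTAGNCAG in Akr1c13 and TATAA in Ptgr1.
Akr1c13: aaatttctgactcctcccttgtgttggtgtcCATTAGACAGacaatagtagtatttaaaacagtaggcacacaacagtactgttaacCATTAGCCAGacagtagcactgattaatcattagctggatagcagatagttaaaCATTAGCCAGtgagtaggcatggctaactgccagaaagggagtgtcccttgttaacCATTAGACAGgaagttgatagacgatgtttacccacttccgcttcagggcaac
Ptgr1: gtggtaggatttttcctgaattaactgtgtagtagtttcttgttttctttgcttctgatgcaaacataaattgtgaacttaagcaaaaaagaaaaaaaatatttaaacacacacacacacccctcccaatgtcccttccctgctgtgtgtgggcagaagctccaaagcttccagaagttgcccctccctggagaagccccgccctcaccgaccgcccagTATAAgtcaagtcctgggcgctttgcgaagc
Cryz: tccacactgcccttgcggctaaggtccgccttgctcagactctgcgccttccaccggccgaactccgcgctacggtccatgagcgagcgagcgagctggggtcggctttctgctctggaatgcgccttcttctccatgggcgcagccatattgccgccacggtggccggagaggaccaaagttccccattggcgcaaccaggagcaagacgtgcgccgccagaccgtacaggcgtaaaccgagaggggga
The Akr1c13 stretch holds CATTAGNCAG 4 times on the gene's strand, starting 219, 163, 109 and 53 bases before the start. Searched on both strands of 32851 such windows, these letters were present in 0.174%, and 1 window held them 4 times. They were taken from the Akr1c13 window itself, as the first by letter of 3 patterns of 10 letters with 1 open position that recur most often in it, so the low share is no test. TATAA starts 31 bases before the start of Ptgr1 and was found on either strand in 22.8% of all windows. The core of the antioxidant response element, TGACNNNGC, was in 0 of the 6 windows of the 5 genes on either strand, and in 10.2% of all windows. The shown Cryz window is 64.4% G and C, that of Ptgr1 46.4% and that of Akr1c13 42.4%, around a median of 52.4% over all windows.

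Nr4a2 itself had a signal of 320 for clone 42 and 206 for clone 48, against 485 for puroB and 254 for puroD (92248_at), so that each transfected line was below its matched control. The other Nr4a2 probe set (92249_g_at) had 188 for clone 42 and 113 for clone 48, against 372 for puroB and 213 for puroD. Whether these probe sets read the transfected Nurr1 could not be told here. As the signals do not show the transfection, these lines are called Nurr1-labelled, and each direction is that of the labels. The neural stem marker Nes had 3171 for clone 42 and 3716 for clone 48, against 3323 for puroB and 3027 for puroD. Fabp7, a fatty acid binding protein of neural progenitors and a marker of the same list, had 564 for clone 42 and 157 for clone 48, against 1291 for puroB and 1537 for puroD (limma adjusted p = 0.0503). It was thus below both controls in both Nurr1-labelled clones, and lowest in clone 48. Hes5, of the same list, was not above the controls for absent transcripts on any array, and Pax6 was above them in puroB only. These controls, 19 probe sets for bacterial and yeast transcripts that were not added, reached 62.6 for clone 42 and 40.9 for clone 48, against 49.8 for puroB and 59.0 for puroD. A signal under that level of its array is treated as not above background, and a fold against it is then only a lower bound. For log2 differences, any signal lower than 40.3 was raised to 40.3, a floor taken at percentile 30 of the whole table.

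Of the 5 reductase probe sets, 3 differed by 2-fold or more between the highest and the lowest clone (24.0% of all tested probe sets did), and 2 of these by 10-fold or more (0.187% of all). All 5 were among the 6419 probe sets tested, which exceed the median of all values (145) on at least 2 arrays. Akr1c13 passed this filter through clone 42 and puroD, and Cryz through clone 42 and puroB, the arrays on which they were high. That these probe sets passed and vary is therefore no result in itself.

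**Figure D1:**
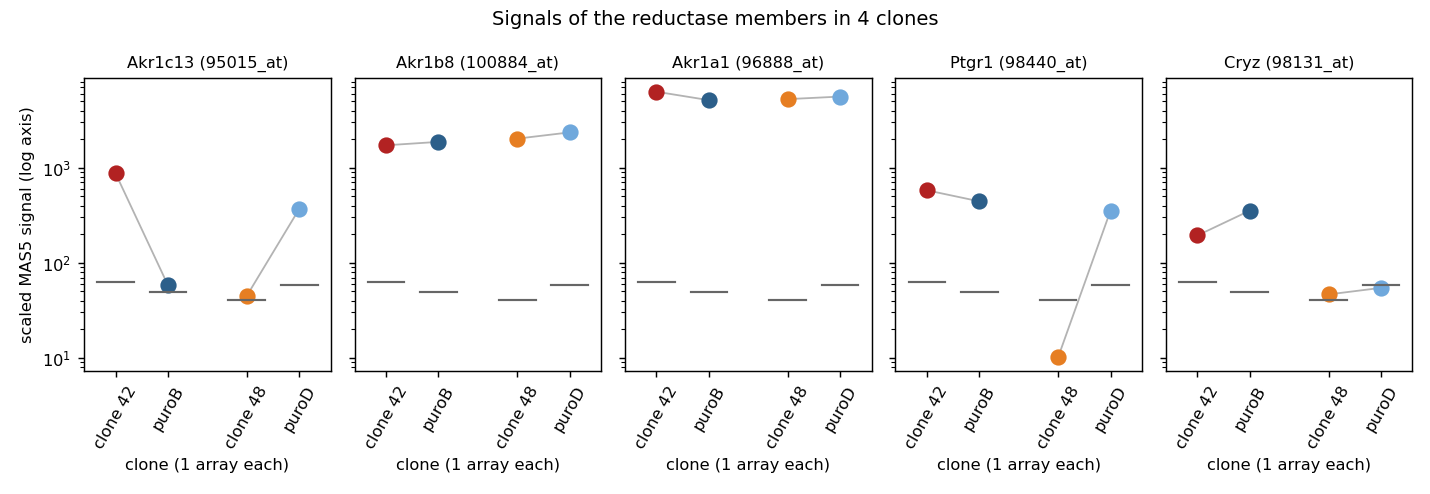
Scaled MAS5 signal (log axis) of the 5 reductase probe sets in each clone, 1 array per point, with the Nurr1-labelled clone left of its matched control and grey lines joining each pair; short grey bars give the background level of each array. Akr1c13 was high in clone 42 and puroD, Ptgr1 was low in clone 48, Cryz was higher in the first pair than in the other, and Akr1b8 and Akr1a1 were nearly level.

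Akr1c13, an aldo-keto reductase of the hydroxysteroid dehydrogenase branch, went in opposite directions in the matched pairs. Its signal (95015_at) was 873 for clone 42 and 44.8 for clone 48, against 57.9 for puroB and 368 for puroD. Both groups thus held a high and a low clone, and they overlapped. Clone 42 was 15.1-fold higher than puroB, a log2 difference of 3.92, whereas clone 48 was 8.22-fold lower than puroD, a log2 difference of -3.04. The control clones differed as well, puroB being 6.36-fold lower than puroD, and clone 42 was 19.5-fold higher than clone 48. The low signals in clone 48 and puroB lay only just above the background levels of their arrays (40.9 and 49.8), so the sizes of these ratios are uncertain. With all signals under 100 set to 100, the pair differences were 3.13 and -1.88 on the log2 scale.

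Over both pairs, the mean log2 difference of Akr1c13 was 0.44 ± 1.00 (limma moderated SE, n = 2 clones per group), which describes neither pair. This SE leans on the spread of all probe sets and is not the spread between the pairs. With a clone left out the pairing was dropped, so those values are differences of group means. They were -1.71 without clone 42, -0.90 without puroB, 2.58 without clone 48 and 1.77 without puroD. The sign of the difference thus depended on which clone was left out. Only 1 of the 6419 tested probe sets had a larger range over the 4 clones, and no probe set but that of Akr1c13 had opposite differences of at least this size in both pairs. As the gene was chosen for this pattern, these ranks are given as a description.

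Akr1c13 lies in a cluster of related genes, between Akr1c18 and Akr1c19 in RefSeq's order. Of its relatives, Akr1c6 gave 69.5 for clone 42 and 44.6 for clone 48, against 60.3 for puroB and 48.6 for puroD (92556_at), which is near background and failed the filter. Akr1c21 stayed between 9.29 and 18.0 on the 4 arrays (160733_at), under background. Akr1c12 is nearly identical in sequence to Akr1c13 in the mouse, and whether 95015_at also reads its transcript could not be told from the files.

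Ptgr1, prostaglandin reductase 1, was low in clone 48 only. Its signal (98440_at) was 579 for clone 42 and 10.1 for clone 48, against 443 for puroB and 354 for puroD. The 3 other clones were all well above background. Clone 48 was under the background level of its array (40.9), so that it was at least 8.67-fold lower than puroD and at least 14.2-fold lower than clone 42 in signal. In the first pair clone 42 was 1.31-fold higher than puroB, a log2 difference of 0.39, and between the controls puroB was 1.25-fold higher than puroD. The mean log2 difference over both pairs was -1.37 ± 0.57 (limma moderated SE, n = 2 clones per group) with clone 48 at the floor. Without clone 48, and with the pairing dropped, clone 42 was 0.55 above the mean of the controls. Of the tested probe sets, 4 had a larger range over the clones, again with clone 48 at the floor. As the gene was chosen by its signals on these arrays, this rank is given as a description.

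Among the summed signals of several cell types, that of the astrocyte markers had the order of clones of Ptgr1. It was named for this order after the values were seen. The sum was 1764 for clone 42 and 796 for clone 48, against 1092 for puroB and 823 for puroD. Clone 48 and puroD thus differed little in it, unlike in Ptgr1. That sum came mostly from S100b, a calcium-binding protein, at 1599 for clone 42 and 509 for clone 48, against 735 for puroB and 625 for puroD. Of 5 astrocyte markers with a probe set, between 2 and 3 were above background on each array, Aqp4 was on none, and Gfap was above it in clone 48 and puroB only. Only S100b among them had the order of the sum. Gfap was highest in clone 48 (133), and Aldoc was highest in puroB (197, against 70.2 in clone 42). Clone 48, where Ptgr1 was low, also had the highest 3′/5′ ratios of the 4 arrays, for both actin (2.41) and Gapdh (1.24). A higher ratio is a sign of less intact RNA. The lowest signal of the progenitor marker Fabp7 was in clone 48 as well. The part of these markers and of RNA integrity in the Ptgr1 values was not tested.

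Cryz, the quinone reductase zeta-crystallin, differed between the pairs more than within them. Its signal (98131_at) was 194 for clone 42 and 46.5 for clone 48, against 354 for puroB and 54.4 for puroD. Both clones of the first pair were high and both of the other pair low, and the groups overlapped. In the first pair clone 42 was 1.83-fold lower than puroB, a log2 difference of -0.87. In the other pair no fold is given, because puroD lay under the background level of its array (59.0) and clone 48 only just above its own (40.9). Between the controls, puroB was at least 6.0-fold higher than puroD in signal, and clone 42 was 4.17-fold higher than clone 48. The mean log2 difference over both pairs was -0.55 ± 0.46 (limma moderated SE, n = 2 clones per group). This mean includes the pair of clone 48 and puroD, whose signals lay at or near background. With the pairing dropped, the difference of group means was 0.80 without puroB and 0.48 without clone 48. Both values set clones of different pairs against each other, whereas clone 42 was below puroB in its own pair.

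The arrays on which Cryz was low also had the higher ratio of 3′ to 5′ actin signal. This ratio was 1.68 for clone 42 and 2.41 for clone 48, against 1.51 for puroB and 2.0 for puroD. For Gapdh it was 0.935 and 1.24 in the same Nurr1-labelled clones, against 0.859 and 0.973 in the controls. Among the summed signals of several cell types, that of the microglia and macrophage markers had the order of clones of Cryz. It was named for this order after the values were seen. The sum was 899 for clone 42 and 654 for clone 48, against 917 for puroB and 794 for puroD. Clone 42 and puroB thus differed little in it. Of the 7 of these markers with a probe set, 4 were above background on each array, and Aif1, Itgam and Lyz2 were on none. Of those above background, only Cd14 had the order of the sum. Csf1r was highest in puroD (233) and lowest in puroB (155), and Cx3cr1 was lowest in puroD (138). The part of RNA integrity and of these markers in the Cryz values was not tested.

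Akr1b8, an aldose reductase-like enzyme first described as induced by fibroblast growth factor, was nearly level. Its signal (100884_at) was 1723 for clone 42 and 2025 for clone 48, against 1873 for puroB and 2356 for puroD. The log2 differences in the pairs were -0.12 and -0.22, smaller than the -0.33 of puroB over puroD. With the arrays scaled to the same median the pair differences were 0.0022 and -0.0027, so the direction in the first pair depended on the scaling. A larger range over the 4 clones was found for 76.4% of tested probe sets.

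Akr1a1, the aldehyde reductase that in mice makes a precursor of ascorbate from glucuronate, was also nearly level. Its signal (96888_at) was 6313 for clone 42 and 5275 for clone 48, against 5144 for puroB and 5613 for puroD. In log2, the first pair differed by 0.30 and the other by -0.09, which became 0.13 with scaling to the median. For puroB over puroD it was -0.13, which became 0.072 with quantile normalization. Of the tested probe sets, 91.6% had a larger range.

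Set side by side, the counts of the reductases are given with the share over all tested probe sets. Of the 5 probe sets, 3 (Akr1c13, Ptgr1 and Akr1a1) had opposite signs in the pairs, near the share of 48.7% over all tested probe sets. With scaling to the median Akr1a1 was higher in both pairs (0.42 and 0.13), and Akr1b8 had opposite signs (0.0022 and -0.0027). Differences of 2-fold or more in both pairs in opposite directions were found for Akr1c13 alone, 1 of 5, against 0.389% of all, of which 0.296% were higher in clone 42 and lower in clone 48, as Akr1c13 was, and 0.0935% the other way. In clone 42 over puroB 1 of 5 was higher by 2-fold or more (3.57% of all), and in clone 48 over puroD 2 of 5 were lower by that much (3.72% of all). In puroB over puroD 1 of 5 was higher (3.02% of all) and 1 lower (3.04% of all), and in clone 42 over clone 48 3 of 5 were higher (6.15% of all). All 5 were lower in clone 48 than in puroD as scaled here (53.0% of all tested probe sets were), though Akr1a1 was not with scaling to the median, nor Cryz with quantile normalization (0.06). For Cryz, puroD was under background and clone 48 only just above it, and with a floor of 100 they did not differ. No member had both Nurr1-labelled clones above or both below the controls (0 of 5, against 30.6% of all). In limma with the matched pair as a block, 0 of 5 passed a Benjamini-Hochberg adjusted p of 0.05, against 0.109% of all tested probe sets (0.0623% higher and 0.0467% lower), and 1 of 5, Ptgr1, had an unadjusted p under that threshold, against 7.38% of all. As these contrasts chose the genes, the shares are given only as background.

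**Figure D2:**
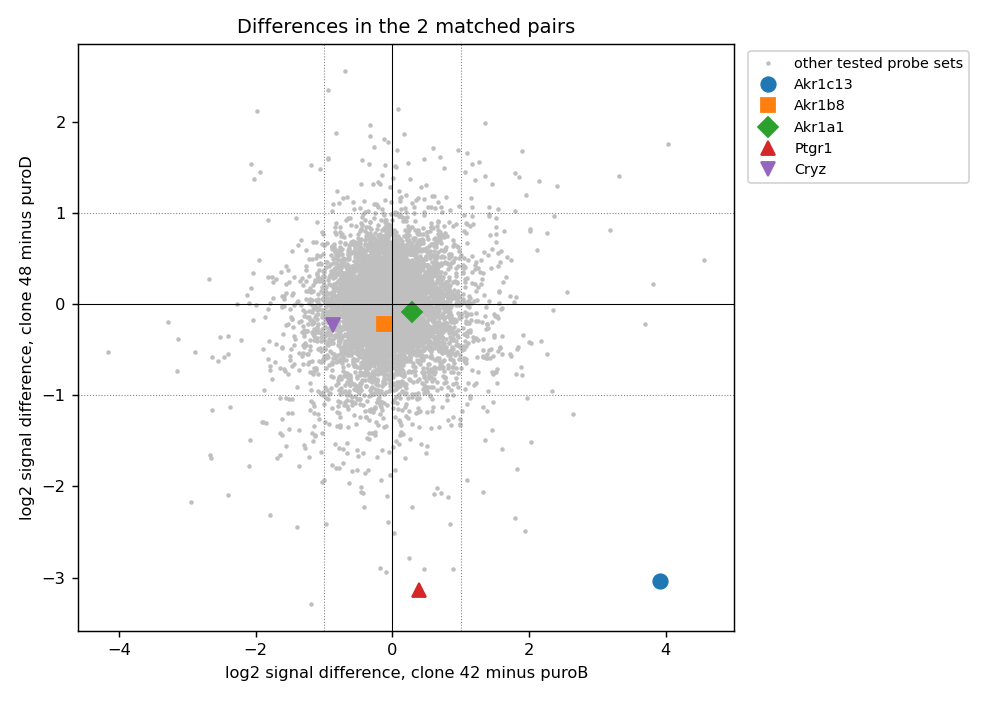
Log2 signal difference of clone 42 minus puroB (horizontal) against that of clone 48 minus puroD (vertical) for the 6419 tested probe sets in grey and the 5 reductases as coloured symbols; dotted lines mark 2-fold. Akr1c13 (3.92 and -3.04) stands apart at the lower right, and Ptgr1 (0.39 and -3.14, clone 48 at the floor) lies low near the vertical axis.

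For the 3 reductases that spanned 2-fold or more, the probe sets of other genes with the most similar pattern over the 4 clones were sought. Likeness was the root mean square difference of log2 signals, each centred on its own mean over 4 clones, among 5819 tested probe sets with 1 gene symbol. No probe set came within 0.5 of Akr1c13. The closest was Nppb, a natriuretic peptide, at 0.82, with 323 for clone 42 and 64.7 for clone 48, against 51.7 for puroB and 149 for puroD. Next came a probe set of Pola2, a subunit of DNA polymerase alpha, at 0.86 (161739_r_at), but the other Pola2 probe set had 591 for clone 42 and 830 for clone 48, against 1106 for puroB and 1093 for puroD. The third was Pts, at 0.90, which encodes the enzyme for the middle step of tetrahydrobiopterin synthesis, the cofactor of tyrosine hydroxylase. Pts had 602 for clone 42 and 144 for clone 48, against 147 for puroB and 412 for puroD, all above background.

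The probe sets closest to Ptgr1 were those of Mknk1, a kinase of translation factor eIF4E, at 0.46, Pdgfra, a growth factor receptor, at 0.50, and Sat1, which acetylates polyamines, at 0.53. Sat1 had 6225 for clone 42 and 973 for clone 48, against 4091 for puroB and 4131 for puroD, so that it was low in clone 48 while well above background. Mknk1 had 504 for clone 42 and 62.1 for clone 48, against 306 for puroB and 262 for puroD. Pdgfra had 223 for clone 42 and 29.4 for clone 48, against 232 for puroB and 212 for puroD, and its 2 dimmer probe sets failed the filter. In clone 48 both Ptgr1 and Pdgfra were under background and were raised to the floor of 40.3. The distances to Ptgr1 thus depend on the floor.

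For Cryz, 12 probe sets came within 0.5. The closest were Olfr2, an olfactory receptor, at 0.23, Bhlhe40, a repressor of the circadian system that is induced by hypoxia, at 0.28, and Synpo, an actin-associated protein, at 0.39. Olfr2 had 147 for clone 42 and 47.3 for clone 48, against 241 for puroB and 49.5 for puroD. Its puroD signal was under the background level of that array (59.0), and clone 48 was only just above its own (40.9). Bhlhe40 had 435 for clone 42 and 130 for clone 48, against 578 for puroB and 125 for puroD, and was thus high in the first pair and low in the other on signals above background.

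**Figure D3:**
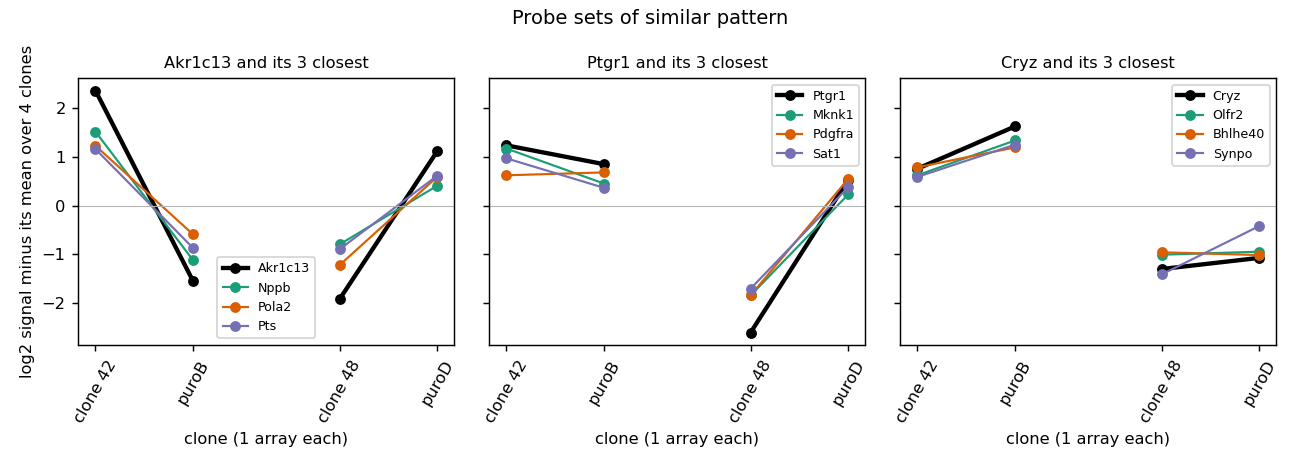
Log2 signal minus its mean over the 4 clones for Akr1c13, Ptgr1 and Cryz (black) and for the 3 probe sets closest to each (colours), 1 array per point, with matched clones joined. Akr1c13 spans more than its closest neighbours, the Ptgr1 panel shows the low value of clone 48, and the Cryz panel shows both clones of the first pair above both of the other.

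Related genes were read from 6 lists, other aldo-keto, quinone, carbonyl and medium-chain reductases, NRF2 and its targets, glutathione transferases, aldehyde dehydrogenases, prostaglandin and leukotriene genes, and polyol and glucuronate genes. Of 145 listed genes, 109 had a probe set and 66 were tested, each with its brightest tested probe set. In limma, 0 of 66 passed in either direction (0.109% of all tested probe sets passed), and 2 of 66 had an unadjusted p under 0.05, against 7.38% of all. In clone 42 over puroB 4 of 66 differed by 2-fold or more, against 8.35% of all probe sets, in clone 48 over puroD 2, against 5.39%, and in puroB over puroD 1, against 6.06%. None of the 66 differed by 2-fold or more in opposite directions in both pairs, against 0.389% of all, and 34 had opposite signs, against 48.7%. Both counts are near these shares.

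Of the 43 other reductases listed, 15 were tested, with a median log2 difference of -0.15 for clone 42 over puroB and 0.017 for clone 48 over puroD, beside -0.06 and -0.03 over all tested probe sets. Adh7, an alcohol dehydrogenase that oxidises retinol, had 3334 for clone 42 and 1471 for clone 48, against 1431 for puroB and 1332 for puroD, a log2 difference of 1.22 and 0.14 in the pairs (limma adjusted p = 0.732). It was high in clone 42 alone. Kcnab2, a potassium channel subunit of the aldo-keto reductase fold, had -0.18 and -1.11 at its brightest probe set and -1.15 and -0.70 at the other (162182_f_at and 102892_at; limma adjusted p = 0.823 for the first). Cbr1, a carbonyl reductase, had -0.26 and -0.93, and Spr, sepiapterin reductase, which completes tetrahydrobiopterin synthesis, -0.04 and -0.81 (limma adjusted p = 0.841 and 0.895). Spr had 295 for clone 42 and 285 for clone 48, against 302 for puroB and 500.5 for puroD, so that only puroD stood apart. Nqo1, the NRF2-induced quinone reductase, was under background on all 4 arrays at both of its probe sets, between 6.69 and 28.6.

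Among NRF2 and its targets, 25 genes were tested, with medians of -0.05 and -0.10 in the pairs. Abcc1, which exports glutathione conjugates, had 142 for clone 42 and 96.5 for clone 48, against 345 for puroB and 288 for puroD, so that both Nurr1-labelled clones lay below both controls. Its mean log2 difference was -1.43 ± 0.35 (limma moderated SE, n = 2 clones per group, limma adjusted p = 0.145, unadjusted 0.00117). Taldo1, a pentose phosphate enzyme, had 1349 for clone 42 and 1323 for clone 48, against 872 for puroB and 833 for puroD, with 0.65 ± 0.30 (limma adjusted p = 0.665, unadjusted 0.0483). Sqstm1, an autophagy receptor, had 1.04 and 0.35, Mafk, a small Maf partner of NRF2, 0.82 and -0.67, and Me1, malic enzyme, -0.89 and -0.34 (limma adjusted p = 0.678, 0.995 and 0.723). NRF2 itself (Nfe2l2) had 953 for clone 42 and 925 for clone 48, against 1268 for puroB and 813 for puroD.

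Of 9 tested glutathione transferases, the microsomal Mgst3 had 1.15 and 0.013 in the pairs, Gstm5 -0.97 and 0.47, Gstm2 0.11 and 0.71, and Gstm3 -0.12 and -0.51 (limma adjusted p from 0.871 to 0.977). Gstm1, named because it was the only list gene past 2-fold between the controls, had the order of Cryz by pair, with 2267 for clone 42 and 1226 for clone 48, against 2699 for puroB and 1199 for puroD (93543_f_at); its other probe set had 493 and 327, against 433 and 347. The mu class genes are close in sequence, so their probe sets may read each other's transcripts. Of 6 aldehyde dehydrogenases, Aldh18a1, of proline synthesis, had -0.68 and 0.92, and Aldh2, of the mitochondrial matrix, -0.46 and -0.03. Of 6 polyol and glucuronate genes, the hexokinases Hk1 and Hk2 had 0.66 and -0.86, and -0.72 and -0.05. The 5 prostaglandin and leukotriene genes stayed between -0.39 and 0.37 in both pairs, with Ptgds, which makes prostaglandin D2, at -0.36 and -0.39.

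**Figure D4:**
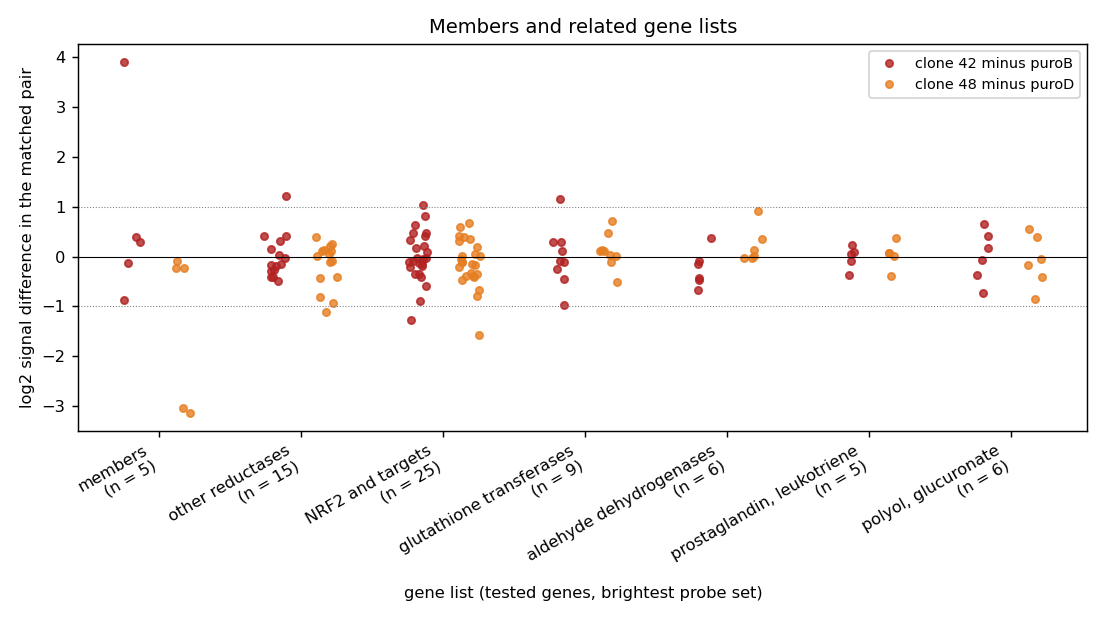
Log2 signal difference in the matched pairs (clone 42 minus puroB in red, clone 48 minus puroD in orange) for the 5 reductases and for the tested genes of the 6 related lists, 1 point per gene; dotted lines mark 2-fold. Akr1c13 (3.92 and -3.04) and Ptgr1 (-3.14 in the pair of clone 48) lie beyond the points of every list.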

How the data were processed

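The deposited values are linear intensity values, 1 MAS5 signal per probe set and array for 4 arrays (12469 rows); MAS5 is named in the submitters' processing notes, without a version. The deposited values had nearly equal trimmed means (500.4 to 500.5). Here each array was rescaled to a trimmed mean of 500 (2% off each end), floored at 40.3 and put on a log2 scale. Without 66 array controls, 6419 probe sets exceeded the median on 2 or more arrays and were tested with limma 3.58.1 (R 4.3.3): matched pair as a block, as the labels match the clones, eBayes with trend, Benjamini-Hochberg adjustment. This fit has 1 residual degree of freedom and a prior of 13.1, so p-values and SE lean on the spread of all probe sets. With 2 clones in each group, precision is limited by their number. Single arrays were compared by ratio, with no p. Symbols came from the platform annotation (10814 probe sets with 1 symbol, 396 with several, 1193 with none; 10798 matched by Entrez identifier to RefSeq GRCm38.p6, 0 updated). The members and lists were chosen with earlier results of these data known. Named genes are all members, Nr4a2, up to 4 genes per list with the largest difference in either pair plus any called, and the 3 nearest patterns per member past 2-fold; others named were chosen after their values were seen. Alternatives were quantile normalization, median scaling, no floor, a floor of 100, no filter, a filter on all 4 arrays, no trend, no block and each array left out. The fits with an array left out had no block. RefSeq held upstream windows for all 5 genes.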

Additional observations from a re-analysis of the deposited data

Results flagged for a closer look

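Akr1c13 moved in opposite directions under the same comparison in the matched pairs, by 2-fold or more in each: the log2 difference was 3.92 for clone 42 over puroB and -3.04 for clone 48 over puroD. Each pair holds 1 array per line, so the difference between the pairs was not tested. The gene was chosen for this pattern, and its signals in clone 48 and puroB lay only just above background.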

How the results depend on the processing

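The log2 differences of Akr1c13 kept their direction in both pairs and between the controls with quantile normalization or median scaling, and with no floor or one of 100. The low signal of Ptgr1 in clone 48 decides its size: without a floor it was -5.13 against puroD, and clone 42 stood 5.84 above clone 48. For the level genes, scaling to the median, which moved the median of all tested probe sets by 0.12 and 0.22 in the pairs, gave Akr1b8 -0.0027 in clone 48 over puroD and -0.46 in clone 42 over clone 48, and Akr1a1 0.13, 0.031 and, over both pairs, 0.27. Quantile normalization gave Akr1a1 0.061 in clone 42 over puroB and 0.072 in puroB over puroD. Leaving out each array in turn, with the pairing dropped, gave differences of group means. They ranged from -1.71 to 2.58 for Akr1c13, from -3.30 to 0.55 for Ptgr1 and from -1.90 to 0.80 for Cryz. For Akr1b8 they ranged from -0.34 to -0.0039, and for Akr1a1 from -0.03 to 0.23. As reported, 7 probe sets passed. With no replicate block 0 passed (287 at an unadjusted p under 0.05), with quantile normalization 0 (376), with no floor 0 (473), with no filter 0 (560), with scaling to the median 56 and with the filter on all 4 arrays 49; leaving out an array gave 0 (puroB) to 51 (clone 48), with 17 without clone 42 and 2 without puroD. The cause was not tested. The block leaves the mean differences as they are, and with it or without it no list gene passed. Of 48 recounts of list genes past 2-fold, 10 gave another count, each by 1 gene.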

Other observations

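Opposite differences of 2-fold or more in both pairs were found for 25 of the 6419 tested probe sets, 19 of them higher in clone 42 and lower in clone 48, as Akr1c13 was, and 6 the other way. The genes named here were chosen after their values were seen. Rdh5, a retinol dehydrogenase of another reductase family, had 199.6 for clone 42 and 54.2 for clone 48, against 65.3 for puroB and 164 for puroD. Its low signals were not far above the background levels of clone 48 and puroB (40.9 and 49.8). It passed the filter through clone 42 and puroD, where it was high. Timm8b, a chaperone of mitochondrial import, had 2092 for clone 42 and 1073 for clone 48, against 833 for puroB and 2344 for puroD, and Cnpy2, a protein of the endoplasmic reticulum, 2634 and 1100, against 1193 and 2211. In the other direction, Isoc1, an isochorismatase domain protein, had 392 for clone 42 and 2301 for clone 48, against 1493 for puroB and 846 for puroD. Among the glutathione transferases, a probe set of Gstm5 that failed the filter (100631_r_at) had 63.1 for clone 42 and 64.4 for clone 48, against 52.5 for puroB and 438 for puroD, whereas the brightest Gstm5 probe set had 1590 and 2862, against 3110 and 2073.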
